A study of Mus musculus with 56 samples.

Results

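Blood expression of 10 genes of early and myeloid blood development was examined in mice given the internal emitter 90Sr and in control mice. The genes were taken by name from the array files: Kit and Cd34, surface proteins of progenitor cells; Meis1, Runx1 and Myb, transcription factors of stem and progenitor cells; Spi1, Cebpa and Cebpb, factors of the myeloid lineage; and Cebpe and Gfi1, factors of granulocyte maturation. They are 10 of 30199 gene names on the array and were represented by 12 probes. Spi1, the gene of PU.1, was listed under its older symbol Sfpi1 and was matched through the accession of its transcript. The grouping follows the known roles of the genes in bone marrow; of the proteins that mark progenitors, Kit was well above background on 3 of 56 arrays and the Cd34 probe that represented the gene on 42 of 56.

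Blood cells arise from stem cells of the bone marrow through a sequence of progenitors, and each step is run by a small set of transcription factors. RUNX1, MYB and MEIS1 keep progenitors and are switched down in many mature cells, although RUNX1 and MYB also act in lymphocytes. PU.1 and C/EBP alpha direct progenitors toward monocytes and granulocytes, C/EBP epsilon and GFI1 complete the maturation of neutrophils and their granules, and C/EBP beta serves granulocyte production under stress and in macrophages.

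The animals were C57BL/6 mice, 10 to 12 weeks old on arrival and quarantined for 14 days. The irradiated mice had received 200 kBq of 85/90SrCl2 in 0.05 mL by tail vein, and the controls, per the methods, a vehicle injection. 90Sr deposits in bone, where it irradiates the marrow continuously. Each mouse gave 1 array of whole-blood RNA, with 4 control and 4 90Sr-injected mice at day 4, and 6 and 6 at each of days 7, 9, 25 and 30; 1 activity was injected, so the day and the accumulated dose cannot be told apart. Levels are log2 signals minus the log2 median of the 43020 non-control spots of the same array, so that 0 is the array's median spot and 1 unit is a 2-fold difference. A gene was called at a day when the unadjusted p of the limma test was under 0.001 and the change 2-fold or more, as in the methods, and the adjusted p given are over all 14581 genes tested.

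The arrays differed in ways that touch these genes. Spots well above background numbered 17809 to 24698 on the control arrays, with a median of 21049, and 14389 to 22524 on the 90Sr arrays, with a median of 17863. Several of the 10 genes were dim, and their probes were flagged below that level on more 90Sr than control arrays, as given with each gene. Scaling on the 75th percentile instead of the median raised the change of the middle detected gene by 0.48, 0.35, 0.39, 0.48 and 0.19 log2 units in order of day, so each change is also given on that scale where the choice matters. At day 4 the control and the 90Sr arrays were on separate slides, so slide and treatment cannot be told apart there; at each later day 1 slide held 2 arrays of each group.

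Of the 10 genes, 9 passed the filters on detection and variation; Kit did not pass the filter on detection. Of these 9, the limma test called 1, 3, 1, 2 and 2 lower in order of day. It called 0 of them higher on any day, also at an unadjusted p under 0.05. Over all genes tested, 23.1%, 16.1%, 17.9%, 26.5% and 21.3% were called lower in the same order, and 2.80%, 3.47%, 5.45%, 7.49% and 19.7% were called higher. The shares called lower stand against 11.1%, 33.3%, 11.1%, 22.2% and 22.2% of the 9 genes. The share of these genes called was therefore above the background at day 7 and near or below it at the other days. At an adjusted p under 0.05, 4, 7, 5, 7 and 3 of the 9 genes had lower levels, against 37.9%, 37.5%, 33.6%, 39.7% and 36.2% of all genes tested. The median change of the 9 genes was -0.58, -0.73, -0.68, -1.002 and -0.49 log2 units, beside 0.04, 0.07, -0.17, 0.11 and 0.01 for all genes tested. On the scale of the 75th percentile, where Runx1 failed the variation filter, 0, 0, 0, 0 and 1 of the other 8 genes were called in either direction. Over all genes tested on that scale, calls lower and higher together made up 26.9%, 20.2%, 22.8%, 38.0% and 43.6%. In bulk RNA, fewer cells of a type and less RNA per cell cannot be told apart.

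**Figure D1:**
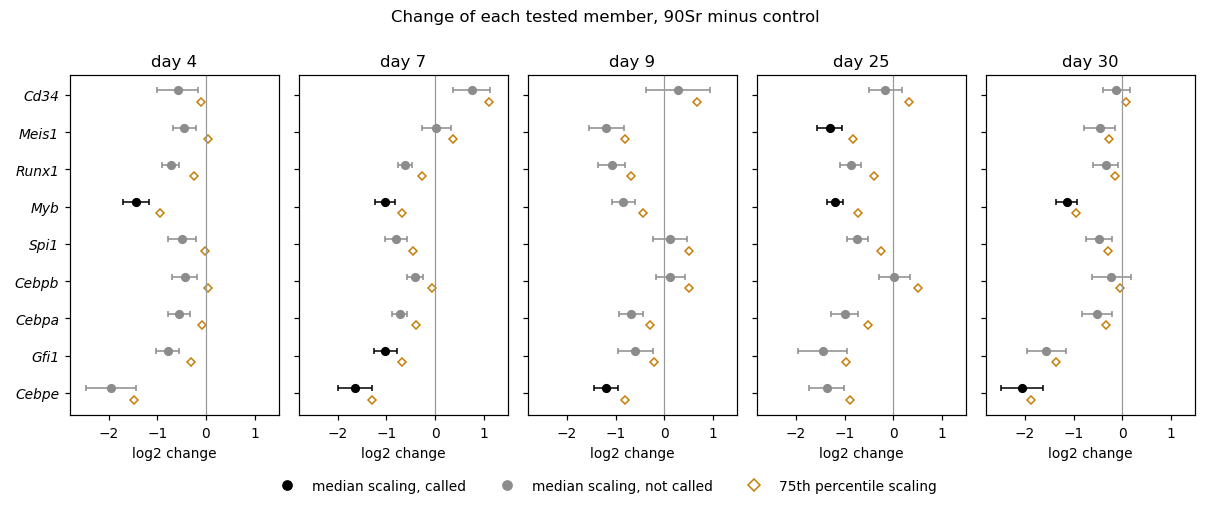
Log2 change of each of the 9 tested genes (90Sr minus control) at each of the 5 days; circles are the change on the median scale with its SE as a bar, black where called, and open diamonds are the change after scaling on the 75th percentile. Cebpe, Myb, Gfi1, Cebpa and Runx1 lie left of 0 at all 5 days on both scales, while the diamonds of Cd34, Meis1 and Cebpb cross 0.

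Cebpe encodes C/EBP epsilon, which is needed for the late maturation of neutrophils and eosinophils and for their secondary granules. It was lower in the 90Sr-injected mice at all 5 days and was called at days 7, 9 and 30 and had the largest mean change over the 5 days among the 9 genes (-1.64). The probe lies at mm9 chr14:55329200-55329259 on the minus strand.

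At day 4, the Cebpe levels of the control mice were 3.34, 3.55, 3.07 and 3.01, and those of the 90Sr-injected mice were 2.07, 0.33, 2.63 and 0.12. All 4 treated mice were below all 4 controls, but they were widely spread, and the change of -1.96 ± 0.51 (SE) had an adjusted p of 0.00862 in limma and was not called; without treated replicate 3 it was -2.40 and called. At day 7, the lowest, median and highest levels were 2.76, 3.11 and 3.37 in the control mice and 0.11, 1.65 and 2.77 in the treated mice. Of the 6 treated mice, 5 were below every control, and Cebpe fell 3.13-fold (log2 change -1.64 ± 0.35, adjusted p = 0.00114, limma).

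At day 9, the lowest, median and highest Cebpe levels were 2.76, 3.55 and 3.84 in the control mice and 1.64, 2.27 and 2.87 in the treated mice, the smallest of the 5 changes (2.28-fold lower, -1.19 ± 0.25, adjusted p = 0.00118, limma). All 12 arrays of that day were well above background for this probe. At day 25, they were 3.51, 4.03 and 4.35 in the control mice and 1.26, 2.61 and 3.74 in the treated mice. The treated mice of day 25 ranged from the level of the controls to far below it, and the change of -1.37 ± 0.36 had an adjusted p of 0.00394 in limma and was not called (-1.60 and called without treated replicate 3). At day 30, the lowest, median and highest levels were 2.82, 3.70 and 4.16 in the control mice and -0.02, 1.81 and 3.20 in the treated mice. Again 5 of the 6 treated mice were below every control, and Cebpe fell 4.18-fold (-2.06 ± 0.43, adjusted p = 0.000608, limma).

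The treated mice were more spread in Cebpe than the controls at each day but day 9, a difference that was not tested. Between mice, the SD of the log2 level was 0.22 to 0.47 in the 5 control groups and 0.40 to 1.25 in the 5 treated groups, and the probe was well above background on 28 of 28 control arrays and 20 of 28 treated arrays. The changes on the scale of the 75th percentile were -1.48, -1.30, -0.80, -0.88 and -1.87, with a call at day 30 alone. On the 4 slides that held both groups, both treated arrays were below both control arrays each time, with differences of -2.76, -0.89, -0.63 and -1.10 at days 7, 9, 25 and 30. With slide as a fixed term the change rests on these 2 and 2 arrays of each day alone. The calls of days 9 and 30 were then lost (changes of -0.89 and -1.10, adjusted p = 0.11 and 0.22, limma).

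Gfi1 encodes a transcriptional repressor that granulocyte precursors need and that also acts in lymphocytes. Its changes were negative at all 5 days, but it was called at day 7 alone. The probe lies at mm9 chr5:108145719-108145778 on the minus strand and was well above background on 27 of 28 control and 11 of 28 treated arrays.

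At day 7, the lowest, median and highest Gfi1 levels were 1.15, 1.51 and 2.03 in the control mice and -0.13, 0.52 and 1.29 in the treated mice. Gfi1 fell 2.04-fold (-1.03 ± 0.24, adjusted p = 0.00206, limma), with 5 of 6 treated mice below every control. On the scale of the 75th percentile that change was -0.68 and not called, and without control replicate 1, 2, 4 or 6 or treated replicate 1, 2 or 6 it was between -0.89 and -1.04 and also not called.

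At day 25, the Gfi1 levels of the controls were close together, from 1.67 to 2.09, whereas those of the treated mice were 1.75, 1.19, 0.16, 1.98, -0.75 and -1.60. The treated mice of that day thus spread from the control level to the lowest Gfi1 level of all 56 arrays, and the change of -1.45 ± 0.50 was not called (adjusted p = 0.0172, limma). At day 30, the lowest, median and highest levels were 0.13, 1.82 and 2.47 in the control mice and -1.13, 0.19 and 1.04 in the treated mice. The control at 0.13 stood apart from the other 5 controls, at 1.61 to 2.47. Its array had 19652 spots well above background, beside 22576 to 24698 on the arrays of the other 5. With that control the change was -1.56 ± 0.40 (adjusted p = 0.00271, limma) and not called. Without that control the change was -1.86 and called, as it was without treated replicate 1 (-1.69) or 2 (-1.75). At days 4 and 9 the changes were -0.79 ± 0.24 (adjusted p = 0.0163) and -0.59 ± 0.36 (adjusted p = 0.188, limma).

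**Figure D2:**
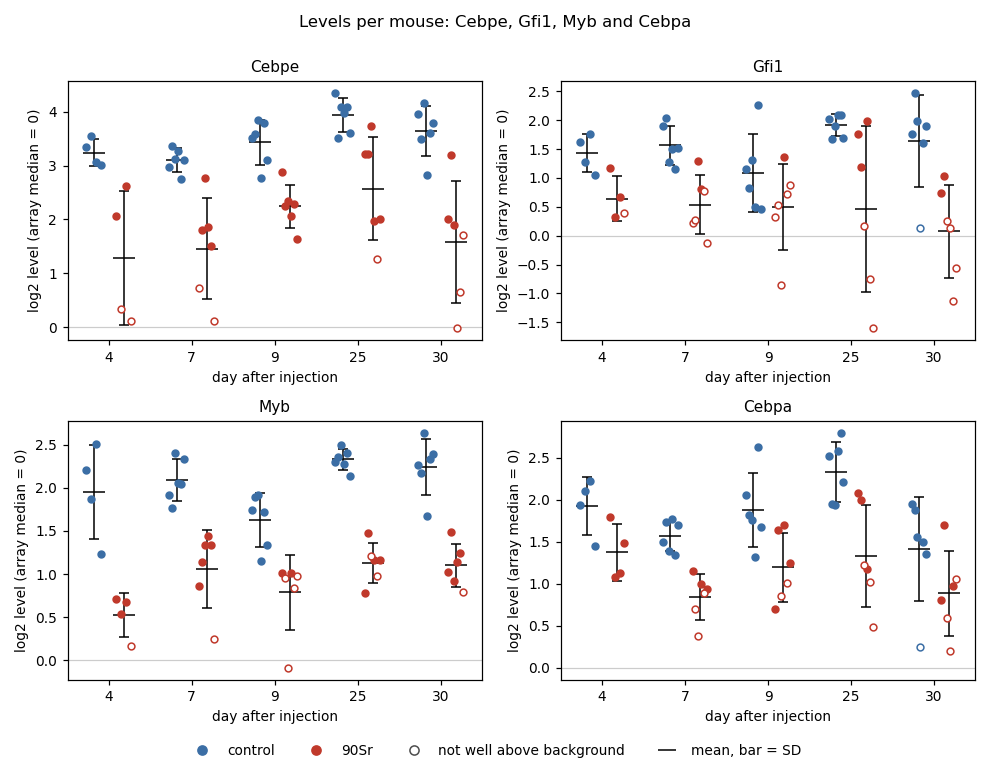
Levels of Cebpe, Gfi1, Myb and Cebpa in each mouse, in log2 units above the array median, by day after injection; each point is 1 mouse, open points are arrays on which the probe was not well above background, and horizontal marks and bars are the group mean and SD. On this scale the Myb levels of treated and control mice do not overlap at any day, while some treated mice of day 25 reach the control levels of Cebpe, Gfi1 and Cebpa.

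Myb encodes c-Myb, a factor of proliferating progenitors that is also expressed in developing lymphocytes. On the median scale it was the only member of the 10 whose treated and control mice did not overlap at any day; scaled to the 75th percentile, they did not overlap at days 4, 25 and 30 and overlapped at days 7 and 9. It was called lower at days 4, 7, 25 and 30. In order of day, 3, 4, 2, 3 and 1 of the 9 genes had all treated mice below all controls, against 35.9%, 27.6%, 23.3%, 30.5% and 16.9% of all genes tested. No member other than Myb had all treated mice below all controls at any day when scaled to the 75th percentile. A share over all genes tested is not given for that scale, nor for separation at all 5 days on the median scale. The separation of Myb is therefore a description and not shown to be particular to it. A call lower at 4 or more of the 5 days was made for 14.5% of the genes tested. The probe lies at mm9 chr10:20844736-20844795 on the minus strand.

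At day 4, the Myb levels were 2.21, 1.87, 2.51 and 1.24 in the control mice and 0.72, 0.54, 0.68 and 0.16 in the treated mice. Every treated mouse was below every control, and Myb fell 2.70-fold (-1.43 ± 0.27, adjusted p = 0.0014, limma). That call was lost without control replicate 1, 2 or 3 or treated replicate 2 or 4, with changes between -1.25 and -1.46. At day 7, the lowest, median and highest levels were 1.77, 2.05 and 2.40 in the control mice and 0.24, 1.24 and 1.44 in the treated mice, a fall of 2.04-fold (-1.03 ± 0.21, adjusted p = 0.000803, limma). That change stood just past 2-fold and was between -0.86 and -0.99 without control replicate 3 or 6 or treated replicate 1 or 6.

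At day 9, the Myb levels were 1.15, 1.73 and 1.92 in the control mice and -0.09, 0.97 and 1.02 in the treated mice, as lowest, median and highest. The change of -0.84 ± 0.24 was smaller than 2-fold and not called (adjusted p = 0.00846, limma). At day 25, the controls lay between 2.13 and 2.49 with a median of 2.33, and the treated mice between 0.78 and 1.48 with a median of 1.17. Myb fell 2.30-fold there (-1.20 ± 0.17, adjusted p = 0.000139, limma), the smallest adjusted p of any of the 10 genes. At day 30, the lowest, median and highest levels were 1.67, 2.30 and 2.64 in the control mice and 0.80, 1.08 and 1.48 in the treated mice, a fall of 2.21-fold (-1.15 ± 0.22, adjusted p = 0.000325, limma).

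The Myb probe was well above background on 28 of 28 control and 19 of 28 treated arrays. On the scale of the 75th percentile its changes were -0.95, -0.68, -0.44, -0.72 and -0.96, none of them past 2-fold, with the mean of the treated group lower at each day. Both treated arrays were below both controls on each of the 4 shared slides, by 0.54 to 1.29 log2 units. With slide as a fixed term, again on the 2 and 2 arrays of the shared slide, the day 7 call was kept. Those of days 25 and 30 were lost (changes of -1.14 and -1.11, adjusted p = 0.16 and 0.0978, limma).

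The RefSeq table of promoters (GRCm38.p6) held 11 entries for 8 of the 10 genes, without Cebpe and Spi1. The 250 bases before the transcription start are shown for Myb, as the gene whose groups were separate at all days on the median scale. They are also shown for both entries of Runx1, whose starts are 128745 bases apart, and for the Gfi1 entry with most matches. The 2 Runx1 probes, which behaved differently, were not matched to these starts. Capitals mark matches, on either strand, to TGTGGT (RUNX), GAGGAA (PU.1), TTGCNNAA (C/EBP), AACTG (MYB) and TGACAG (MEIS), the binding sequences of factors among the 10 genes. The Gfi1 match to C/EBP overlaps one to MYB.
Myb, chr10:21160985-21161234, minus strand: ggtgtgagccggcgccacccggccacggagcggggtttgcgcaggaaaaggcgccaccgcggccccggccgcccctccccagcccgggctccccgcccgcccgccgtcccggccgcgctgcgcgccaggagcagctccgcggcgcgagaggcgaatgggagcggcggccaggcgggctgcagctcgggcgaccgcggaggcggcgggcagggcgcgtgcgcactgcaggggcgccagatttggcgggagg
Runx1, chr16:92826075-92826324, minus strand: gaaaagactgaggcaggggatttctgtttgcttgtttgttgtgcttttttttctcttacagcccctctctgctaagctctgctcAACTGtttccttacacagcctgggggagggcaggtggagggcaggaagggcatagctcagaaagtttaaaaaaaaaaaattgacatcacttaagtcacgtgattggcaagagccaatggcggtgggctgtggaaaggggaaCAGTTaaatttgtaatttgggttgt
Runx1, chr16:92697330-92697579, minus strand: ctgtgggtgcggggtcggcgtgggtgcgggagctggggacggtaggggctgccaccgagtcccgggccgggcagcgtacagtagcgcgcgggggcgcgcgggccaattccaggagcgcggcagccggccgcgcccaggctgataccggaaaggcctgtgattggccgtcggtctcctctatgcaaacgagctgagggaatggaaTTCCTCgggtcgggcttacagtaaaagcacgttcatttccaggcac
Gfi1, chr5:107725806-107726055, minus strand: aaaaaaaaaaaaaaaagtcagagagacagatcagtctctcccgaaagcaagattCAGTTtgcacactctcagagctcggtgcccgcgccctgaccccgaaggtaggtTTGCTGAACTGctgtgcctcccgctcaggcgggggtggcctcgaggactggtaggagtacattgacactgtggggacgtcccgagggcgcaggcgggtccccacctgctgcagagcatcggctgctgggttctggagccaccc
The Myb stretch held 0 of the 5 motifs. The Runx1 stretch at chr16:92826075-92826324 held 2 matches to MYB, and the other held 1 to PU.1. Of 32851 promoter entries of the same length, 39.1% held the MYB letters, 23.3% those of PU.1, 15.9% those of MEIS, 14.0% those of RUNX and 9.56% those of C/EBP. A match of these letters is a description of the sequence and not a binding site.

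Runx1 encodes the DNA-binding subunit of core binding factor, which starts blood formation in the embryo and later acts in progenitors, megakaryocytes and lymphocytes. Its 2 probes gave different results. The probe that the array design assigns to transcript variant 4 lies at mm9 chr16:92604413-92604472, and that of variant 2 at chr16:92605785-92605844, both on the minus strand. The variant 2 probe failed the filter on variation, so the variant 4 probe represented the gene among those tested.

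With the variant 4 probe, the Runx1 levels at day 4 were 2.43, 2.24, 2.70 and 2.32 in the control mice and 1.78, 1.91, 1.44 and 1.66 in the treated mice. The groups did not overlap at days 4, 7, 9 and 25, with changes of -0.72 ± 0.17, -0.62 ± 0.14, -1.08 ± 0.27 and -0.88 ± 0.21 (adjusted p = 0.0049, 0.00157, 0.00425 and 0.00201, limma). None of these was called, because the changes were under 2-fold or, at day 9, the unadjusted p was 0.00119 (called without treated replicate 4 or 6, at -1.23 and -1.18). At day 9, the lowest, median and highest levels were 1.97, 2.10 and 2.58 in the control mice and 0.31, 1.17 and 1.86 in the treated mice. At day 30, the change was -0.34 ± 0.25 (adjusted p = 0.238, limma) and the groups overlapped. Scaled to the 75th percentile, the 5 changes were -0.25, -0.27, -0.68, -0.39 and -0.15, and the groups overlapped at every day.

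With the variant 2 probe, the Runx1 changes were 0.27 ± 0.11, -0.03 ± 0.18, 0.12 ± 0.22, -0.12 ± 0.18 and 0.02 ± 0.24 in order of day, with adjusted p of 0.0726 to 0.939 over all detected probes (limma). After scaling to the 75th percentile they were 0.75, 0.32, 0.51, 0.36 and 0.21, so that the signs of days 7 and 25 turned. At day 4, its levels in the treated mice, 4.68 to 4.91, were all above those of the controls, 4.49 to 4.62; at the other days the groups overlapped. At day 4, such separate and higher levels were found for 19.5% of all genes tested. It was well above background on 56 of 56 arrays, and the variant 4 probe on 28 of 28 control and 23 of 28 treated arrays.

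The difference between both Runx1 probes within an array does not depend on how arrays are scaled. The variant 4 probe minus the variant 2 probe was lower in the treated mice by 0.99, 0.59, 1.19, 0.75 and 0.36 log2 units in order of day. In two-sided exact permutation tests adjusted over 10 comparisons (5 days for Runx1 and 5 for Cd34), the adjusted p was 0.0714 at day 4, where 4 against 4 mice cannot give an unadjusted p below 0.0286, then 0.0216, 0.0216, 0.0289 and 0.317. The signals of the 2 probes thus changed unequally at days 7, 9 and 25.

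**Figure D3:**
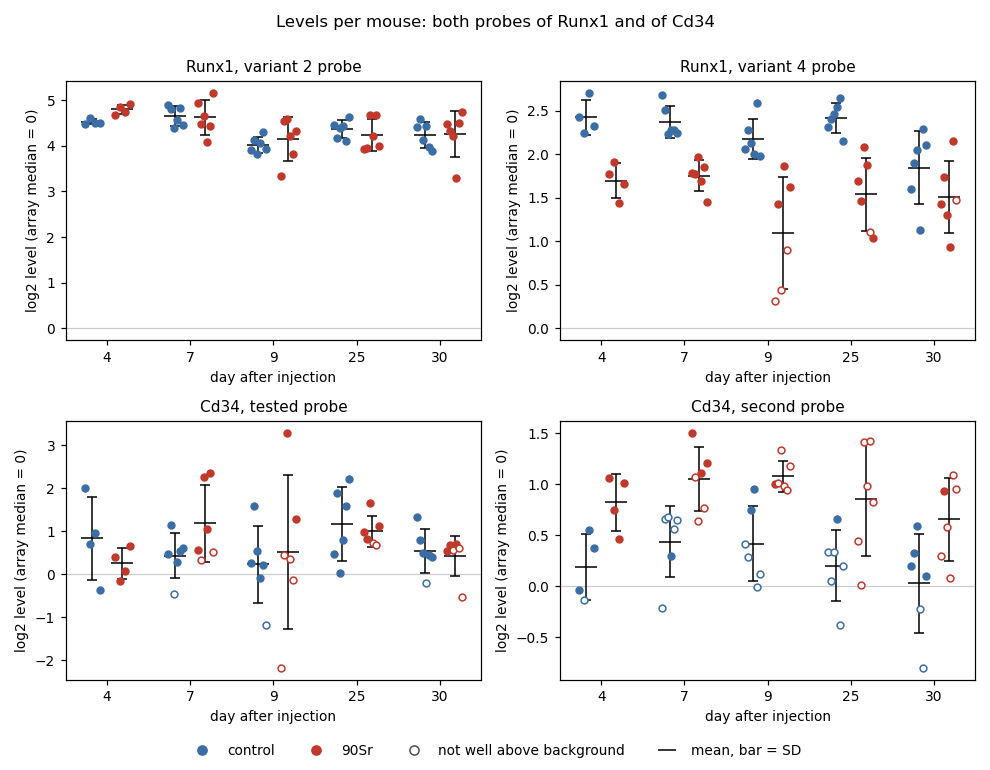
Levels of both probes of Runx1 and both probes of Cd34 in each mouse, in log2 units above the array median, by day; points, open points, marks and bars are as in the plot of Cebpe, Gfi1, Myb and Cebpa. On this scale the Runx1 variant 4 probe separates the groups at days 4 to 25 while the variant 2 probe does not separate them after day 4, and the Cd34 groups overlap at every day for both probes.

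Meis1 encodes a homeobox factor of stem cells and megakaryocyte progenitors. It was called lower at day 25. The levels there were 0.62, 1.19 and 2.10 in the control mice and -0.48, -0.15 and 0.63 in the treated mice, as lowest, median and highest, with 5 of 6 treated mice below every control. The probe (mm9 chr11:18780695-18780754, minus strand) was well above background on 6 of 6 control arrays and 0 of 6 treated arrays of that day, so only a bound can be given. On the median scale Meis1 was at least 1.44-fold lower at day 25 (adjusted p = 0.000491, limma). On the scale of the 75th percentile the measured change was -0.82 and not called. With slide as a fixed term, on the 2 and 2 arrays of the shared slide, it was -1.29, beside -1.31 without, and not called (adjusted p = 0.18, limma). The bound sets the control mean against a treated mean in which each array takes the probe's own level or, where that is higher, the lowest level of any probe well above background. All bounds, here and below, are on the median scale. Changes were higher by 0.48, 0.35, 0.39, 0.48 and 0.19 in order of day on the scale of the 75th percentile. Bounds are smaller there, and those whose log2 value is below the shift of their day do not hold.

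At days 9 and 30, Meis1 was also not well above background on any of the 6 treated arrays, while it was on 5 of 6 control arrays, and the bound was under 1, so no fold is given. The adjusted p was 0.0128 at day 9 and 0.201 at day 30 (limma), and day 9 was called without treated replicate 4. At days 4 and 7 the changes were -0.44 ± 0.24 and 0.02 ± 0.30 (adjusted p = 0.134 and 0.948, limma), and on the scale of the 75th percentile 0.03 and 0.37. Among the 10 genes, the test of whether the change differs between days gave its lowest adjusted p for Meis1, 0.0904 (limma F test). On that F test 0 of the 9 genes passed an adjusted p of 0.05 and Meis1 alone had an unadjusted p under 0.05, beside 22.5% of all genes tested past the adjusted threshold.

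Spi1 encodes PU.1, the factor of monocytes, granulocytes and B cells. It was not called at any day. The probe is listed at mm9 chr2:90939665-90953452, a span over more than 1 exon, and was well above background on 27 of 28 control and 13 of 28 treated arrays. At day 7 the lowest, median and highest levels were 0.81, 1.0003 and 1.39 in the control mice and -0.52, 0.42 and 0.74 in the treated mice, without overlap (-0.80 ± 0.22, adjusted p = 0.00669, limma). At day 25 they were 1.47, 1.66 and 2.28 against 0.31, 1.08 and 1.44, again without overlap (-0.74 ± 0.22, adjusted p = 0.0077, limma). The treated mice of day 9 split: 2 were at 2.66 and 2.53, above every control, and 4 at 0.65 to 1.03, below every control, so their mean differed from the controls by 0.12 ± 0.35. At days 4 and 30 the changes were -0.50 ± 0.29 and -0.49 ± 0.27 (adjusted p = 0.153 and 0.113, limma). On the scale of the 75th percentile all of these were closer to 0 or higher, at -0.02, -0.45, 0.52, -0.25 and -0.30 in order of day.

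Cebpa encodes C/EBP alpha, which opens the granulocyte and monocyte path. It was not called at any day, and its changes were negative at each. The probe (mm9 chr7:35906517-35906576, plus strand) was well above background on 27 of 28 control and 17 of 28 treated arrays. At day 7 the lowest, median and highest levels were 1.34, 1.60 and 1.77 in the control mice and 0.37, 0.91 and 1.15 in the treated mice, without overlap (-0.73 ± 0.16, adjusted p = 0.00118, limma). At day 25 they were 1.93, 2.37 and 2.80 against 0.49, 1.20 and 2.08 (-1.002 ± 0.27, adjusted p = 0.00476, limma). The day 25 change was 2.00-fold, with an unadjusted p of 0.00224, and it was called without treated replicate 1 or 2 (-1.15 and -1.13). The changes of days 4, 9 and 30 were -0.55 ± 0.23, -0.68 ± 0.25 and -0.53 ± 0.31 (adjusted p = 0.0579, 0.0351 and 0.134, limma), and on the scale of the 75th percentile the 5 changes were between -0.08 and -0.52.

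Cebpb encodes C/EBP beta, which is induced by cytokines in granulocytes and macrophages. It did not follow Cebpe. The probe (mm9 chr2:167515828-167515887, plus strand) was well above background on 56 of 56 arrays, its groups overlapped at every day, and it was not called. The changes were -0.43 ± 0.26, -0.41 ± 0.16, 0.13 ± 0.30, 0.03 ± 0.31 and -0.23 ± 0.40 in order of day, with an adjusted p of 0.0389 at day 7 and 0.165 to 0.942 at the other days (limma). The signs of the small changes depended on the scale, with 0.05, -0.07, 0.52, 0.51 and -0.04 on that of the 75th percentile. Individual mice differed by more than the groups did: at day 30 the controls ranged from 4.31 to 7.60 and the treated mice from 5.17 to 5.85.

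**Figure D4:**
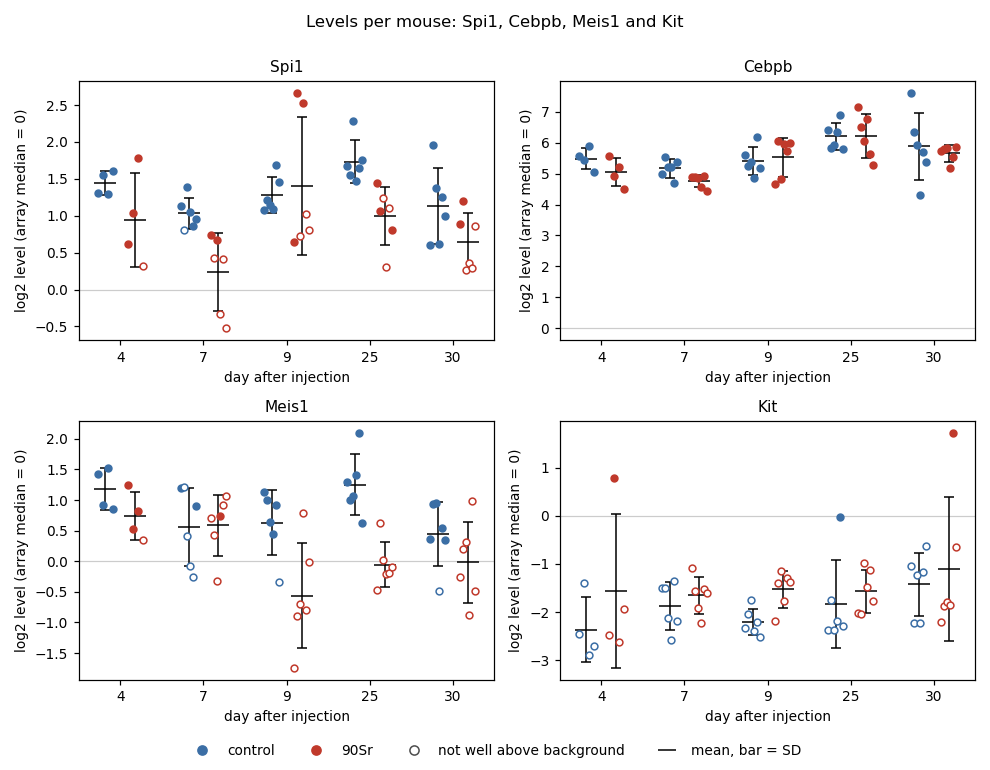
Levels of Spi1, Cebpb, Meis1 and Kit in each mouse, in log2 units above the array median, by day; points, open points, marks and bars are as in the plot of Cebpe, Gfi1, Myb and Cebpa. Nearly all Kit points are open and below 0, the treated Meis1 points of days 9, 25 and 30 are all open, and the Cebpb points of both groups overlap at every day.

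Kit and Cd34, the surface proteins by which progenitors are recognised, differed in how well they were measured. The Kit probe (mm9 chr5:76052394-76052453, plus strand), the receptor of stem cell factor, was well above background on 3 of 56 arrays, 1 control and 2 treated. Its levels ranged from -2.89 to -0.03 in the control mice and from -2.63 to 1.73 in the treated mice. The 3 arrays well above background were a treated mouse of day 4 at 0.79, a control of day 25 at -0.03 and a treated mouse of day 30 at 1.73. No fold is given for Kit, since at each day at least 1 group had no array well above background and no bound was above 1. Tested without filters, its adjusted p was 0.0142 at day 9, where all 12 arrays were below that level, and 0.368 to 0.638 at the other days (limma).

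For Cd34, the probe that represented the gene (mm9 chr1:196787392-196787451, plus strand) was well above background on 25 of 28 control and 17 of 28 treated arrays. Its levels were spread over -1.18 to 2.21 in the control mice and -2.18 to 3.29 in the treated mice. The changes were -0.58 ± 0.43, 0.75 ± 0.38, 0.29 ± 0.66, -0.17 ± 0.34 and -0.12 ± 0.28 in order of day (adjusted p = 0.0914 to 0.754, limma), with overlap at every day and signs that turned at days 25 and 30 on the scale of the 75th percentile, to 0.32 and 0.07. On that scale the day 7 change was 1.101, with an adjusted p of 0.0149 (limma), and was not called. The second Cd34 probe (chr1:196785280-196785339) was well above background on 11 of 28 control and 9 of 28 treated arrays. At day 25 it was well above background on 1 of 6 control and 0 of 6 treated arrays, so no fold is given there. At days 4, 7, 9 and 30 its measured signal was higher in the treated mice by 0.61 to 0.66 log2 units, with adjusted p of 0.013 to 0.0421 over all detected probes (limma) and no call, while it was well above background on 4 of 4, 3 of 6, 1 of 6 and 1 of 6 treated arrays. The treated arrays also had fewer spots well above background, and the part of that in the result was not tested. The difference between both Cd34 probes gave adjusted p of 0.143 to 0.799 over the 5 days in the exact permutation tests above.

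The control mice themselves differed between days in 3 of the 9 genes: Cebpa (adjusted p = 0.0182), Myb (adjusted p = 0.0208) and Cebpb (adjusted p = 0.0367, limma F test), beside 48.2% of all genes tested. The mean control level of Cebpa ran from 1.41 at day 30 to 2.33 at day 25, and that of Cebpb from 5.17 at day 7 to 6.20 at day 25. Control arrays of different days were on different slides, and with slide as a random block the adjusted p were 0.114, 0.0936 and 0.266.

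Related genes were described through lists. The counts called in every list below stand beside 16.1% to 26.5% of all genes tested called lower, by day, and 2.80% to 19.7% called higher. Among 22 other factors that act with these genes in progenitors, 12 were tested, of which 4 or 5 were called lower at each day and 0 to 3 higher. Hhex, a homeobox factor of early blood cells, fell at all 5 days (-1.19 to -1.65), as did Ikzf1, the Ikaros factor of lymphoid progenitors (-1.09 to -1.52). Etv6, a repressor needed by marrow stem cells, was called lower at days 4, 7, 9 and 25 (adjusted p = 8.53e-05 to 0.00239, limma). Its probe was well above background on 1 of 4 treated arrays at day 4, where the change was -1.61, and on none after that day, so only bounds can be given. On the median scale it was at least 1.22-fold lower at day 7, 1.014-fold at day 9 and 1.42-fold at day 25. Scaling on the 75th percentile raised changes by 0.35 and 0.39 log2 units at days 7 and 9, so the bounds of these 2 days do not hold there. The median change of the 20 detected members of that list was between -0.32 and -0.05, beside -0.10 to 0.12 for all detected genes, and between 0.13 and 0.35 on the scale of the 75th percentile, with the opposite sign at every day. On that scale the median of all detected genes was 0.47, 0.35, 0.31, 0.38 and 0.31 in order of day. The median of the list lay below it at each day on both scales. Runx3 was called higher at days 25 and 30 (1.07 and 2.24), and Zfpm1 and Cbfa2t3 at day 30 (1.11 and 1.79). Runx2 was called higher at days 4 and 9, but was well above background on 2 of 28 control and 1 of 28 treated arrays. The summed level of the 20 detected was above every control at days 4 and 7 and overlapped at the other days.

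Among 18 other myeloid factors, 16 were tested, and 5 to 9 were called lower at each day against 0 or 1 called higher. Irf8, the factor that turns progenitors toward monocytes, fell at all 5 days (-1.62 to -1.99), and Egr1, an early response factor of the monocyte path, was also called lower at all days (adjusted p = 0.000148 to 0.000897, limma). The Egr1 probe was well above background on all control arrays but on none of the treated arrays at days 4 and 9. It was at least 2.91-fold and 1.27-fold lower there on the median scale. Scaling on the 75th percentile raised changes by 0.39 log2 units at day 9, so the bound of that day does not hold there. The Egr1 probe was well above background on 1, 2 and 1 of 6 treated arrays at days 7, 25 and 30, where the changes were -2.20, -1.73 and -1.54. Nab2, a corepressor of EGR proteins, fell at days 4, 9, 25 and 30 and changed by -1.11 at day 7 (adjusted p = 0.00354, limma). Fos was called higher at day 25 (1.39). The median change of the 17 detected members was between -1.05 and -0.70, and between -0.83 and -0.36 on the scale of the 75th percentile.

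Among 15 receptors and surface proteins of progenitors, 10 were tested, with 2 to 6 called lower and 0 to 2 higher. Ly6a, which encodes the stem cell antigen Sca-1 and is expressed in lymphocytes too, fell at all 5 days (-1.13 to -1.68). Csf2rb2, a subunit of the IL-3 receptor, fell at days 4 to 25 (-1.20 to -1.71), and Cd48 fell at days 4, 9, 25 and 30 (-1.19 to -1.40). Slamf1 and Cd27 were called higher at day 30 (1.17 and 1.51).

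Granule genes, which Cebpe and the other factors are known to control, were also listed. So few of them were tested that the counts called are not a result about them. Of the 7 genes of primary granules, made at the promyelocyte stage, 5 were tested: 0 were called lower, and the median change was between 0.44 and 1.06. Prtn3, proteinase 3, was called higher at days 4 and 30 (1.04 and 1.06), and Fcnb, a ficolin, at day 7 (1.49). Both probes were dim. That of Prtn3 was well above background on 17 of 28 control and 16 of 28 treated arrays, and that of Fcnb on 13 and 16. At day 7 the Fcnb probe was well above background on 2 of 6 control and 6 of 6 treated arrays. The part of dim signal in these rises was not tested. Of the 11 genes of secondary and later granules, made under C/EBP epsilon, 9 were tested; Mmp9, gelatinase, fell at days 4 and 25 (-1.74 and -1.11), and no other call was made in either direction. The median change of the 10 detected was between -0.75 and -0.21, below that of all detected genes at each day, and 5 to 8 of the 10 changes were negative. On the scale of the 75th percentile that median was -0.01, -0.17, 0.12, -0.27 and -0.02, so its sign turned at day 9. It stayed below that of all detected genes, which was 0.47, 0.35, 0.31, 0.38 and 0.31 on that scale.

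**Figure D5:**
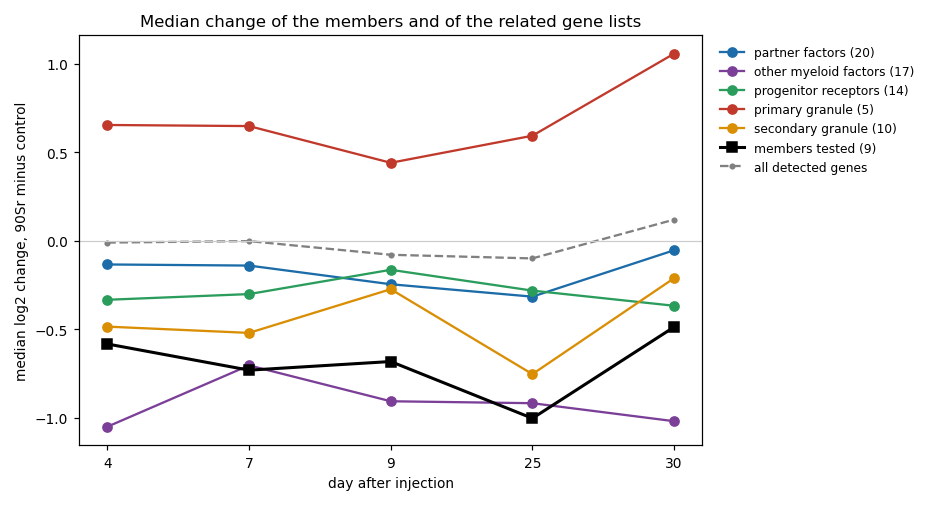
Median log2 change (90Sr minus control) of the 9 tested members, of the detected genes of 5 related lists (their number in brackets) and of all detected genes, on the median scale, at the 5 days, which are evenly spaced on the axis. The line of the other myeloid factors meets that of the members near days 7 and 25 and lies below it at days 4, 9 and 30, and the primary granule genes lie above 0 at every day.

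Markers of the cell types of blood moved as well. Their counts also stand beside 16.1% to 26.5% of all genes tested called lower, by day, and 2.80% to 19.7% called higher. Of 12 tested B cell markers, 10 or 11 were called lower at each day, and the summed level of the 13 detected ranged from 761 to 1673 in the control mice and from 144 to 668 in the treated mice, without overlap within any day. Among 11 tested monocyte markers, 4 to 6 were called lower and 0 or 1 higher. Ccr2 (-2.21 to -2.84) and Cx3cr1 (-1.88 to -2.69) fell at all days. Itgam had positive changes at all 5 days (0.59 to 1.55) and was called higher at day 30. Cd14 also had positive changes (0.23 to 1.04) and was not called. The summed level of all 13 was 2097 to 4445 in controls and 1954 to 7653 in treated mice. It was above every control at day 30 and overlapped at the other days. Of 8 tested neutrophil markers, 0 to 2 were called lower and 0 or 1 higher, and their summed level, 2170 to 6966 against 1599 to 7778, overlapped at all days but day 4. Of 18 tested T and NK cell markers, 0 to 2 were called lower and 0 or 1 higher. Erythroid markers were not called lower at any day, and 0 to 9 of 11 were called higher, with a summed level above every control at each day. Of 4 tested platelet markers among 15 listed, P2ry12 was called higher at day 30 and no other call was made, and the summed level of the 15 was above every control at 1 day. In basophil and mast cell markers, 1 to 3 of 5 tested were called lower and 0 or 1 higher. Fcer1a was called lower at days 7, 9, 25 and 30 (adjusted p = 0.000122 to 0.000535, limma), but was well above background on 0 of 28 treated arrays. On the median scale it was at least 1.78-, 1.05-, 2.46- and 1.62-fold lower at these days. The day 9 bound does not hold on the scale of the 75th percentile. Cpa3, well above background on 4 of 28 treated arrays, was called lower at days 4, 7, 9 and 25. On the median scale it was at least 1.501-fold lower at day 7 and 1.40-fold at day 9, with changes of -1.54 and -1.68 at days 4 and 25. Tpsb2 went the other way, with changes of 0.55, 0.73, 0.53, 0.84 and 1.04 in order of day, and was called higher at day 30. The summed level of the 7 detected markers was 18.9 to 65.2 in controls and 23.7 to 75.3 in treated mice, with overlap at every day. Of 6 tested markers of endothelium and heart muscle, 0 were called lower and 0 or 1 higher. Whether these shifts in cell markers account for any of the changes in the 10 genes was not tested.

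Over the 56 arrays, which share both groups, the slides and the days, the tested genes most like each member were named as a description. For Myb they were Arid1b, Zfp407 and Arnt (r = 0.92, 0.92 and 0.91). For the Runx1 variant 4 probe they were Mgrn1, Cdc42se2 and Maea (r = 0.90 for each). For Gfi1 they were Klrd1 and Hopx (r = 0.90 and 0.88) and an unnamed probe, and for Cebpe Cybb, Cd209a and Rasa4 (r = 0.89, 0.87 and 0.87). For Cebpa they were Aga, Asah1 and Psap (r = 0.88, 0.86 and 0.86), and for Meis1 Otud6b, Sypl and Mtmr12 (r = 0.79, 0.78 and 0.78). For Cebpb they were Nfil3, Sik1 and Slc16a3 (r = 0.77, 0.77 and 0.75), and for Spi1 Gp49a, S100a11 and Fcgr3 (r = 0.72, 0.70 and 0.68). For Cd34 the highest r was 0.50, with Gm5416.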

How the data were processed

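The authors hybridised Cy3-labelled, globin-reduced blood RNA to one-color Agilent arrays and deposited, per array, the processed signal as an intensity, background-corrected by Feature Extraction (11.5.1.1 per the file headers, 10.7 per the labels), with flags for spot quality. They also deposited a table of processed log2 values of 14208 probes, used as an alternative.

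From the intensities, log2 signals were centered on the median of the 43020 non-control spots of each array, and spots of a probe were averaged. A probe was removed when its spots were non-uniform, or below the background test, on at least 25% of arrays, or when under 20% of arrays lay 1.5-fold away from its median. The brightest probe represented a gene, which left 14581 genes (14580 at day 4). Each day was fitted alone with limma 3.58.1 (R 4.3.3; statmod 1.5.0 for random blocks) and Benjamini-Hochberg adjustment. The script was tested on simulated data. Within-array probe differences were compared with SciPy 1.17.1. The methods' random-variance t-test was replaced by limma.

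The 10 members and the gene lists were chosen with earlier results of these data known. All members are named, and per member the 3 genes with the highest correlation. Of each list, up to 3 genes with the largest mean change among those called are named. In some lists genes that went the other way are named too. Positions of probes were copied from the array files (mm9), and no annotation of exons in that build was used. Alternatives were other scalings, background correction, filters, probe rules, thresholds, blocks (replicate number, slide, scan day) and leaving out single arrays. The number of arrays limits the precision.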

Additional observations from a re-analysis of the deposited data

Results flagged for a closer look

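In each of the 120 groups of 4 or 6 arrays, formed by 12 probes, 5 days and both treatments, the highest and the lowest array were set against the others by the gap to the nearest array over the range of the group (Dixon's criterion at 95%). It picked out an array in 8 groups, and chance alone gives about 1 in 20 groups. In control mice, these were Kit at day 25 in replicate 5 at -0.032, the next at -1.75; Spi1 at day 25 in replicate 3 at 2.28, the next at 1.76; and the Runx1 variant 2 probe at day 4 in replicate 2 at 4.62, the next at 4.51. Replicate 4 of the day 30 controls was lowest in both Cebpa at 0.24, the next at 1.35, and Gfi1 at 0.13, the next at 1.61. That array also had the fewest spots well above background of the day 30 controls, at 19652. In 90Sr-injected mice, these were Cd34 at day 30 in replicate 6 at -0.52, the next at 0.53; the Runx1 variant 2 probe at day 30 in replicate 4 at 3.30, the next at 4.21; and Myb at day 9 in replicate 3 at -0.086, the next at 0.84. Without replicate 4 of the day 30 controls, Gfi1 was called at that day with a change of -1.86, and without replicate 1 or 2 of the 90Sr-injected mice with -1.69 or -1.75. No member differed between days in its change at an adjusted p of 0.05.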

How the results depend on the processing

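The counts of members called depended most on the scaling. In order of day they were 1, 3, 1, 2 and 2; scaled to the 75th percentile 0, 0, 0, 0 and 1, with 2, 6, 2, 3 and 3 of 8 members at an unadjusted p under 0.05 in limma; on the probes well above background on all arrays 0, 0, 0, 0 and 2, with 2, 6, 3, 4 and 3 at that p; after quantile normalization 1, 0, 0, 1 and 2, with 3, 6, 3, 5 and 3 at that p; and on the spike-in probes 4, 8, 4, 6 and 3. The spike-in level itself lay between 6.65 and 9.08 by slide. On the spike-in scale the median change of all genes tested was -0.63, -1.88, -1.17, -0.82 and -0.51 in order of day. Among these alternatives a share of all genes called is given for the 75th percentile alone, so the other counts are not a result about the members. With normexp and an offset of 50, 3 members passed the filters and 0 were called at any day, with 0 or 1 at an unadjusted p under 0.05. With slide as a fixed block the counts were 3, 0, 0 and 0 at days 7, 9, 25 and 30, with 4, 3, 3 and 1 at an unadjusted p under 0.05, and with scan day as a fixed block 3 and 0 at days 7 and 30, with 7 and 2 at that p. With slide fixed, each change came from the 2 control and 2 treated arrays of the shared slide alone, fewer than in the main fit. An adjusted p of 0.05 with 2-fold gave 2, 3, 3, 5 and 3, and 1 fit of all 10 groups gave 2, 2, 2, 4 and 3. At day 9, the count was 2 on a reference array, in the authors' processed values and with the filter on probes well above background on 75% of arrays. With 1 array left out, the counts ranged over 0 to 2, 1 to 3, 1 to 3, 2 to 3 and 2 to 3 in order of day. Cebpe, Myb, Gfi1 and Cebpa kept a negative change at every day under each alternative in which they passed the filters.

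Signs turned as follows, none of them in a change called in the main fit. Meis1 at day 7, whose sign turned on the spike-in scale, was called lower on that scale. With the spike-in scale, Cd34 was -1.13 and -0.80 at days 7 and 9, Meis1 -1.86 at day 7, Spi1 -0.96 at day 9 and Cebpb -0.96 and -0.69 at days 9 and 25. With slide as a fixed block, Cd34 was -0.26, -0.38 and 0.19 at days 7, 9 and 30, Meis1 -0.32 at day 7 and Cebpb -0.33 and 0.23 at days 9 and 30. Scaled to the 75th percentile, Meis1 was 0.035 and Cebpb 0.046 at day 4, and Cd34 0.32 at day 25 and 0.068 at day 30; Cd34 at day 25 was 0.27 on probes well above background and 0.080 after quantile normalization. The mean of the probes gave Cd34 0.025, 0.24 and 0.25 at days 4, 25 and 30, and its other probe alone 0.63, 0.65 and 0.62. Scan day as a block gave Cd34 0.065 at day 30, and the authors' values Meis1 -0.015 at day 7. Without the variation filter, without any filter or with each probe alone, an alternative chosen after the data were seen, Runx1 took its variant 2 probe and was 0.27, 0.12 and 0.023 at days 4, 9 and 30. With normexp, Runx1 was 0.44 and 0.49 at days 25 and 30, and Cebpb -0.034 and 0.55 at days 9 and 30. Leaving out 1 array gave ranges across 0 for Cd34 at days 9 (-0.27 to 0.825), 25 (-0.39 to 0.042) and 30 (-0.27 to 0.069), Meis1 at day 7 (-0.14 to 0.205), Spi1 at day 9 (-0.13 to 0.28), and Cebpb at days 25 (-0.16 to 0.22) and 30 (-0.54 to 0.12). The causes were not tested.

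The members whose change differed between days numbered 0, and 2 on the spike-in scale (Runx1 and Spi1); those that differed between control days numbered 3, but 9 on the spike-in scale and 0 with slide as a random block. Replicate numbers were not taken to pair the mice, since at no day did every same-numbered pair correlate above 0.1 (range -0.28 to 0.33). At day 4 all 4 mice correlated best with their own number (0.08 to 0.31), a hint from the data and not the design. A replicate block gave 1, 1, 1, 2 and 3 called members, and Meis1 at day 4 an adjusted p of 0.0421 in place of 0.134 (limma). Dim signal limits Kit and Meis1 most.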
